A study of Mus musculus with 2 samples.

Results

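The 9 genes described here encode RNA-binding proteins that set how long cytokine mRNAs last: Zfp36, Zfp36l1 and Zfp36l2 (the tristetraprolin, or TTP, family), Zc3h12a (Regnase-1), Rc3h1 and Rc3h2 (Roquin-1 and Roquin-2), Elavl1 (HuR), Khsrp (KSRP) and Hnrnpd (AUF1). They were chosen by name, as all noncontrol probes that the array files assign to these symbols. This gave 12 probes of the 55681 on the array and 9 of 24325 named genes. All 9 genes were well above background on both arrays, as were 13009 named genes in all, which are called measured below.

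RNA came from CD4 T cells sorted from spleen cell cultures of female OVA-TCR-Tg mice, whose transgenic T cell receptor recognises ovalbumin (OVA). In the naive-only culture, spleen cells at 2500000 per mL were given OVA at 0.1 mg/mL for 24 h. For the co-culture, naive spleen cells at 50% of that density received the same OVA for the same 24 h beside an equal number of spleen cells that had been stimulated earlier with TSST-1, a bacterial superantigen, at 0.1 μg/mL, which the series calls anergic (hard to activate). The mice carried the same receptor transgene in both groups, their ages are not given in the sources used here, and no label says if naive and pre-stimulated cells were separated by the sort, so the co-culture RNA may come from both.

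With 1 array for each group, every difference is a single measurement without replicates, and no p-value can be given. The error printed after ± is a technical one, from the scanner software's error model for both arrays. It leaves out the variation between cultures. In RNA from many cells, fewer cells of a type and less RNA per cell cannot be told apart.

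Many cytokine mRNAs carry AU-rich elements, repeats of the pentamer AUUUA, in the region after the coding sequence. TTP and its relatives bind these elements through paired zinc fingers and recruit the enzymes that remove the poly(A) tail, after which the RNA is decapped and degraded from both ends. Regnase-1, an endonuclease, and the Roquins, which recruit deadenylases, act instead on short stem-loops, and in T cells both are cleaved by the protease MALT1 after receptor stimulation. HuR binds AU-rich and U-rich RNA and usually protects it, KSRP promotes decay, and AUF1 does either, depending on the RNA and the isoform.

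By brightest probe, 7 of the 9 genes had a lower signal in the co-culture than in the naive-only culture and 2 a higher one. The value of 1 of these 2, Khsrp, lay within its technical error of 0, and its other probe was lower. Zfp36 and Zc3h12a were the 2 genes at least 2-fold lower, where 5.19% of all measured genes were. None was at least 2-fold higher, where 8.26% of all measured genes were. The median log2 difference over the 9 genes, co-culture minus naive-only, was -0.52, beside -0.04 over all measured genes, whose quartiles were -0.37 and 0.34. Negative differences made up 53.5% of all measured genes. The count of 2 depends on the background correction. With normexp background correction followed by quantile normalization (called normexp plus quantile below), Zfp36 was at -0.80 and Zc3h12a at -0.88, and 0 of the 9 reached 2-fold. Quantile normalization alone gave -1.14 and -1.09. Zfp36 and Zc3h12a were also too dim to be kept when only the brighter measured probes were used. Over all genes, the share at least 2-fold lower was 3.31% with normexp plus quantile and 3.14% with only the brighter probes.

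**Figure D1:**
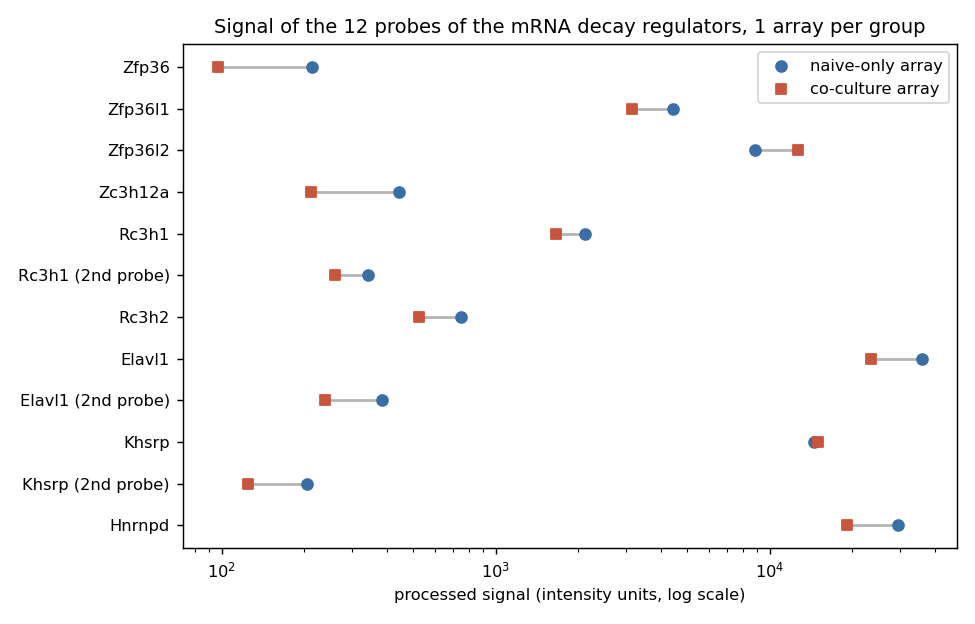
Processed signal in intensity units (log scale) of the 12 probes on the naive-only array (circles) and the co-culture array (squares), 1 array per group. The square lies left of the circle for 10 probes and right of it for the Zfp36l2 probe and the brighter Khsrp probe. Signals of different probes are not comparable as mRNA levels.

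The 3 TTP family genes differed in direction. Zfp36 encodes TTP itself, the family's inducible member, which is made soon after T cells are stimulated and limits TNF and other cytokines. Its probe (chr7:29161940-29161999, mm9, minus strand) read 214 intensity units (naive-only) and 96.7 units (co-culture). After scaling to each array's 75th percentile, as for every fold and log2 difference in the main processing, the co-culture value was 2.23-fold lower. The log2 difference was -1.16 ± 0.22, and 3.97% of measured genes were as low or lower.

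Zfp36l1, which with Zfp36l2 is needed for normal thymocyte development, had a probe at chr12:81209022-81209081 (mm9, minus strand). It read 4440 units (naive-only) and 3151 units (co-culture), a log2 difference of -0.50 ± 0.20, or 1.42-fold lower. Zfp36l2 was the member that was clearly higher in the co-culture. Its probe (chr17:84583415-84583474, mm9, minus strand) read 8867 and 12688 units, a log2 difference of 0.51 ± 0.20, or 1.42-fold higher, and 18.3% of measured genes were as high or higher. Zfp36 and Zfp36l2 therefore stood apart by -1.66 ± 0.30 (log2), and Zfp36l1 and Zfp36l2 by -1.01 ± 0.29. A constant scaling of an array leaves these contrasts as they are, but other processing need not. With normexp plus quantile, Zfp36 was at -0.80, Zfp36l1 at -0.42 and Zfp36l2 at 0.61. None of the 12 probes shared a run of 20 bases with a probe of another gene.

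Zfp36 mRNA itself holds AU-rich repeats, through which TTP is known to limit its own message. The probe's sequence shows them. It holds 2 copies of TATTTAT, the 7-base core that TTP prefers (in DNA letters), and 1 copy of the longer TTATTTATT. The 30-base stretch with the longer element is printed for Zfp36, with the matching stretches of the other 2 genes whose probe holds ATTTA. Capitals mark TTATTTATT in Zfp36 and ATTTA in the others, read on the strand of the probe.
Zfp36 (chr7:29161970-29161999, mm9): ttatgacgactTTATTTATTgtattaagat
Zc3h12a (chr4:124795900-124795929, mm9): aggcgagATTTAaatattttaaatgaaaaa
Khsrp (chr17:57161003-57161032, mm9): agcaagaATTTAacctctgccccgcccccc
Among the probes that stand for all measured genes, each of 60 bases, 8.49% held ATTTA, 1.58% held TATTTAT and 0.192% held TTATTTATT. Of these 3 genes, Zfp36 and Zc3h12a were lower and Khsrp was within its technical error of 0.

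Zc3h12a encodes Regnase-1, which cuts stem-loops in Il6, Il2 and other mRNAs. Its probe (chr4:124795870-124795929, mm9, minus strand) read 443 units (naive-only) and 211 units (co-culture), or 2.11-fold lower at -1.08 ± 0.21. As low or lower were 4.47% of measured genes. Rc3h1 encodes Roquin-1, in which a point mutation leads to follicular helper T cell excess and autoimmunity in mice, and it has 2 probes. The brighter one (chr1:162905017-162905076, mm9, plus strand) read 2121 and 1655 units, a log2 difference of -0.37 ± 0.20. The other one aligns over 1918 bases of chr1 (162895873 to 162897790), so its 60 bases cross a splice junction. Only spliced RNA can pair with it in full, and partial pairing with other RNA is not excluded. It read 342 and 259 units, a log2 difference of -0.41 ± 0.21. Both probes gave nearly the same value, and both lay within 2 technical errors of 0. The junction probe is printed in full, since its 60 bases are contiguous only in spliced Rc3h1 RNA.
Rc3h1, exon junction probe: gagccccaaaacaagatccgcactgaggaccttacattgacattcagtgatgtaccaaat

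Rc3h2, which encodes Roquin-2, a paralogue that can stand in for Roquin-1, had a probe at chr2:37230722-37230781 (mm9, minus strand). It read 745 and 523 units, a log2 difference of -0.52 ± 0.20, or 1.43-fold lower. Rc3h1 and Rc3h2 differed from each other by 0.15 ± 0.29, less than the technical error of that contrast. Regnase-1 and both Roquins were thus lower by point value, Regnase-1 at 2.11-fold and the Roquins at 1.29-fold and 1.43-fold.

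Elavl1 encodes HuR, which in T cells is known for binding Il4, Il13, Gata3 and Il17a mRNAs. Its brighter probe (chr8:4288411-4288470, mm9, minus strand) read 36076 units (naive-only) and 23530 units (co-culture), a log2 difference of -0.63 ± 0.20. Its dimmer probe (chr8:4285514-4285573) read 385 and 239 units, a log2 difference of -0.70 ± 0.21. The 2 probes, which per the file's annotation start at bases 2341 and 5238 of the same transcript, gave values 0.07 apart. Hnrnpd, which encodes the isoforms of AUF1, had 1 probe (chr5:100390181-100390240, mm9, minus strand). It read 29342 and 19218 units, a log2 difference of -0.62 ± 0.20, or 1.54-fold lower. The difference of Hnrnpd and that of the brighter Elavl1 probe were both about 3 times their technical error.

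Khsrp encodes KSRP, a decay-promoting protein with KH domains that also acts in splicing and microRNA maturation. Its brighter probe (chr17:57160973-57161032, mm9, minus strand) read 14496 units (naive-only) and 15045 units (co-culture), a log2 difference of 0.04 ± 0.20. Its dimmer probe (chr17:57162281-57162340), which lies upstream in the same transcript, read 205 and 124 units, or -0.73 ± 0.21. The 2 probes were 0.78 apart, beside a median gap of 0.17 and a 90th percentile of 0.68 over 2859 genes with 2 measured probes. The direction of Khsrp is therefore not settled by these arrays, and the mean of both probes was -0.34. The dimmer probe is printed as 1 of the 2 that disagree, and which of them follows the mRNA better was not tested. The dimmer probe holds no ATTTA and the brighter probe holds 1, and a link between this and the gap was not tested.
Khsrp, dimmer probe: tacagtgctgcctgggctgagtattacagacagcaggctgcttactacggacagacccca

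**Figure D2:**
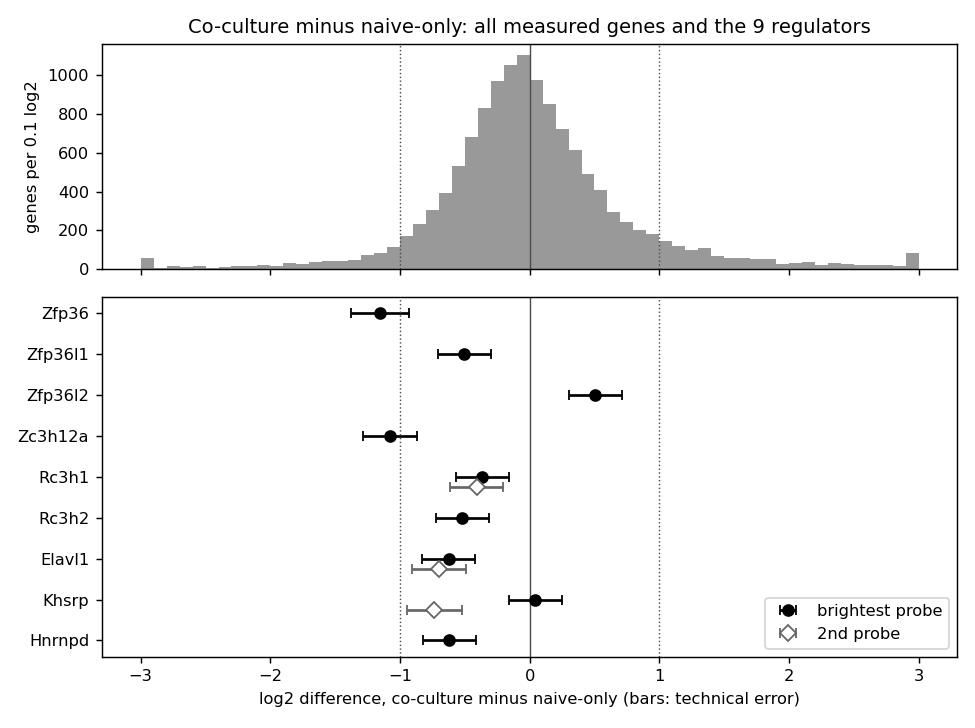
Upper panel, log2 difference (co-culture minus naive-only) of all 13009 measured genes in steps of 0.1, with values beyond 3 in size placed in the end bars. Lower panel, the 9 genes on the same axis, brightest probe as a filled circle and the other probe of Elavl1, Khsrp and Rc3h1 as an open diamond, bars giving the technical error and dotted lines 2-fold. Zfp36 and Zc3h12a lie left of the lower 2-fold line, Zfp36l2 is the only gene clearly right of 0, and the 2 Khsrp probes disagree.

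Since Zfp36 and Zc3h12a had the largest differences of the set, the 250 bases before their transcription starts are shown (RefSeq, GRCm38.p6, both on the minus strand, at chr7:28379229-28379478 for Zfp36 and chr4:125127882-125128131 for Zc3h12a). The promoter table held 8 of the 9 genes, so Zfp36l2, the missing gene, was not searched. Both strands were searched for the Sp1 GC box (GGGCGG), AP-1 (TGANTCA), the cyclic AMP response element (TGACGTCA), the EGR site (GCGNGGGCG), the NF-kappaB site and the CArG box bound by serum response factor. Capitals mark the matches.
Zfp36: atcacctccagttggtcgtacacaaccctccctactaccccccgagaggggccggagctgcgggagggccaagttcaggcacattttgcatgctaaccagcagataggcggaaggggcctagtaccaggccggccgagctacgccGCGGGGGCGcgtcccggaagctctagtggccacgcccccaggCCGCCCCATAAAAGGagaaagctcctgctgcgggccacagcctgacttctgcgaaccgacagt
Zc3h12a: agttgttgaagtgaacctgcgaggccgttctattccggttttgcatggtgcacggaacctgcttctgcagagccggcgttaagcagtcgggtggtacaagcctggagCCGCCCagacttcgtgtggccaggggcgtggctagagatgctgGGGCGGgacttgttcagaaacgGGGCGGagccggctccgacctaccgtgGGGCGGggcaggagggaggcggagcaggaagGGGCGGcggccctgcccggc
The Zfp36 window held 1 EGR match, 1 GC box and 1 CArG box, the last 2 sharing a base. Among 32851 promoter windows of this length, 4.70% held an EGR match, 1.47% a CArG box and 32.7% a GC box. The Zc3h12a window held 5 GC boxes and none of the other motifs. Among the 8 genes with a window, the EGR match and the CArG box were found in Zfp36 alone, and AP-1 matches in Zfp36l1 and Rc3h1. These are letter matches and not binding data.

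The enzymes that carry out the decay were described from lists written from general knowledge of the pathway, with earlier results of these data known. Counts past 2-fold in this and the later lists stand beside 5.19% lower and 8.26% higher over all measured genes. For deadenylation, all 20 listed genes were measured and 0 were past 2-fold in either direction, with a range of -0.72 to 0.75 and a median of -0.13. Cnot1, the scaffold of the CCR4-NOT deadenylase to which TTP and the Roquins bind, was at -0.12 ± 0.20 (levels of 3.69 and 3.57, log2 relative to each array's 75th percentile). For decapping and decay from the 5' end, all 21 genes were measured, 1 was at least 2-fold lower and 0 higher, and the median was -0.01. The exception was Dcp2, the catalytic subunit of the decapping enzyme, which was 3.08-fold lower in the co-culture at -1.62 ± 0.21, with levels of 0.33 and -1.30 (-1.22 with normexp plus quantile). It rests on 1 probe.

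The exosome, which degrades RNA from the 3' end, was lower by point value in most of its genes. Of 16 measured genes, 13 had negative differences, 0 were past 2-fold, and the median was -0.48, near the -0.52 of the 9 regulators. Negative differences were found in 14 of the 20 deadenylation genes, 12 of the 21 decapping genes and 53.5% of all measured genes. The lowest values were those of the nuclease gene Dis3 (-0.87 ± 0.20) and of Exosc10 (-0.67 ± 0.20), which encodes a nuclear exosome nuclease. The highest was that of Skiv2l (0.34 ± 0.20), which encodes the helicase that feeds the cytoplasmic exosome. Dis3, Exosc10 and Skiv2l were picked once their values were known.

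Other proteins that bind AU-rich or stem-loop RNA gave 28 measured genes of 31, of which 1 was at least 2-fold lower and 1 higher, with a median of -0.16. Arid5a, whose product is known to protect Il6 and other mRNAs against Regnase-1, was the higher one. Its levels were 5.64 (naive-only) and 6.98 (co-culture), a log2 difference of 1.35 ± 0.20, or 2.54-fold higher. Hnrnpdl, the paralogue of Hnrnpd, was the lower one at -1.07 ± 0.20, and its other probe gave -1.58. It fell short of 2-fold with quantile normalization (-0.98), in the deposited table (-0.97) and with normexp plus quantile (-0.96). Negative values were given by 21 of the genes and positive ones by 7, and no probe of Elavl2, Elavl3 or Zc3h12b was above background on either array.

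Kinases, phosphatases, 14-3-3 proteins and proteases that control the regulators gave 25 measured genes of 26, of which 0 were at least 2-fold lower and 1 was at least 2-fold higher, with a median of -0.11. The p38 pathway keeps TTP phosphorylated and unable to recruit deadenylases. Map2k6, which encodes a kinase that activates p38, was 3.88-fold higher in the co-culture at 1.96 ± 0.21, with levels of -1.46 and 0.50 (1.54 with normexp plus quantile). Mapkapk2, the kinase that phosphorylates TTP directly, was at 0.56 ± 0.20. Dusp1, the phosphatase that switches p38 off, was at 0.01 ± 0.21. Malt1, whose product cleaves Regnase-1 and the Roquins, was at 0.05 ± 0.20, with levels of 3.96 and 4.01. Neither Dusp1 nor Malt1 differed beyond its technical error.

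**Figure D3:**
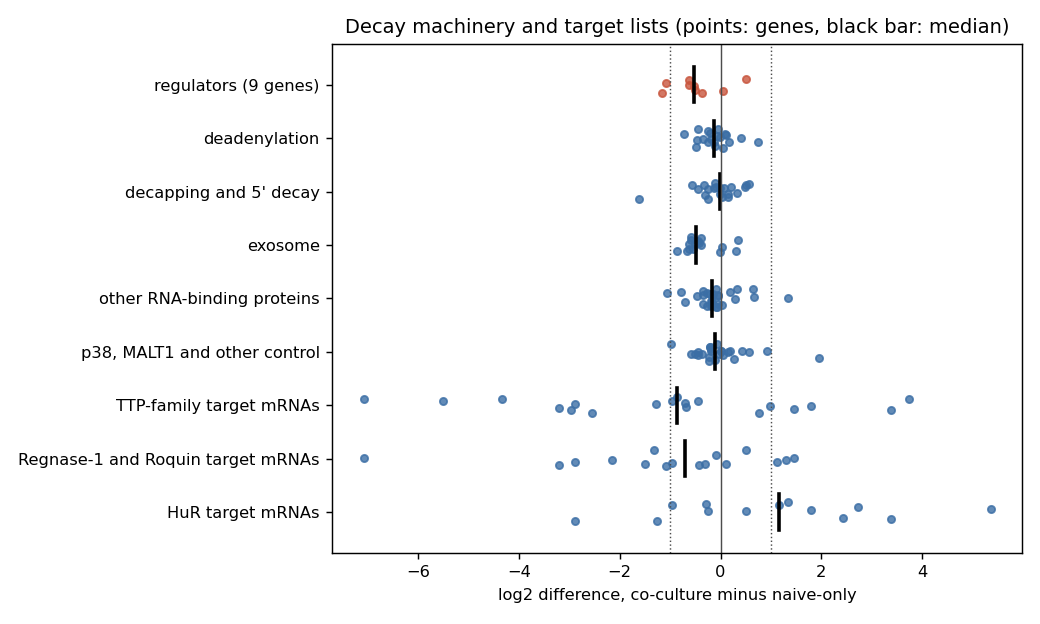
Log2 difference (co-culture minus naive-only) of each measured gene, by list, with the 9 regulators at the top. Points are genes, shifted vertically at random, black bars are medians and dotted lines mark 2-fold. The machinery lists lie mostly between the dotted lines, while the target lists spread from -7.08 (Il2) to 5.37 (Il4).

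Known target mRNAs of these proteins spread far wider than the regulators, in both directions. The TTP family list had 19 measured genes of 22, with a median of -0.87. Of these, 8 were at least 2-fold lower and 4 at least 2-fold higher, where 5.19% and 8.26% of all measured genes were. Another 2 passed the background call in the naive-only culture but not in the co-culture. Its largest differences were those of Il2 (-7.08), Il3 (-5.51), Il22 (-4.33) and Il10 (3.74). Tnf, the best known TTP target, had levels of 3.91 and 2.95, a log2 difference of -0.96 ± 0.20. Csf2, which encodes the growth factor GM-CSF, had levels of 1.43 and 0.56, or -0.87 ± 0.20. Ifng was at 0.99 ± 0.20, just short of 2-fold. It was just past it, between 1.03 and 1.07, under the other 3 scalings, in the deposited table and with normexp plus quantile.

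The list of Regnase-1 and Roquin targets had 16 measured genes of 18, with a median of -0.70. Of these, 7 were at least 2-fold lower and 3 at least 2-fold higher, where 5.19% and 8.26% of all measured genes were. Zc3h12a, whose mRNA Regnase-1 and the Roquins themselves target, is 1 of the 7, so the list is not separate from the regulators. Il6 was 9.20-fold lower in the co-culture at -3.20 ± 0.22 (-2.40 with normexp plus quantile). Ptgs2, which encodes the prostaglandin-forming enzyme COX-2, was at -2.88 ± 0.26 (-1.85 with normexp plus quantile), and Rel, an NF-kappaB subunit, at -2.15 ± 0.32 (-1.03 with normexp plus quantile). The NF-kappaB regulators Nfkbiz (2.82-fold) and Nfkbid (2.50-fold) were also lower. The 3 higher ones were the early response gene Ier3 (2.75-fold), Lcn2 (2.45-fold), which encodes lipocalin-2, and Ctla4 (2.17-fold), which encodes an inhibitory T cell receptor. Il12b (at least 10.4-fold lower) and Cxcl1 (at least 7.94-fold lower) passed the background call in the naive-only culture alone, so their folds are bounds against the lowest signal well above background. These 7 genes were picked once their values were known. Icos, a costimulatory receptor gene and well-known Roquin-1 target, had levels of 7.71 and 7.63, a log2 difference of -0.08 ± 0.20, and its other 2 probes gave 0.00 and 0.26. The median of this list was -0.08 when only the brighter measured probes were kept and -1.02 without a filter on background.

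HuR targets had a median of the opposite sign. The median over 13 measured genes of 14 was 1.17 (0.84 without a filter on background). Of these, 2 were at least 2-fold lower and 7 at least 2-fold higher, where 5.19% and 8.26% of all measured genes were. Il4 (5.37 ± 0.21), Il17a (3.38 ± 0.20) and the mitotic cyclin gene Ccnb1 (2.73 ± 0.20, with 3.28 and 3.39 at its other probes) led them, and Ptgs2 was the lowest of the measured ones. Ccnd1, which encodes cyclin D1, passed the background call in the naive-only culture alone (310 and 8.13 units) and was at least 15.5-fold lower in the co-culture. The type 2 genes Il13 (1.17 ± 0.20) and Gata3 (1.33 ± 0.20), likewise picked by value, were higher as well. Of the listed genes, 8, 7 and 5 of the TTP family, Regnase-1 and Roquin, and HuR lists are also in another list, so the 3 medians share genes.

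Targets with the pentamer in their probe lay in both directions. Of 37 measured targets other than the 9 regulators, 9 had a probe that holds ATTTA. Of these, 1 was at least 2-fold lower, 5 were at least 2-fold higher and 3 were neither. Among all measured genes whose probe holds ATTTA, 5.70% were at least 2-fold lower and 8.87% at least 2-fold higher. Targets without ATTTA in their probe were not counted here, so targets with and without it were not compared. Stretches of 30 bases from 6 of these probes are shown, chosen to span both directions. Capitals mark TTATTTATT in Plk3 and ATTTA in the others.
Ptgs2 (chr1:151954769-151954798, mm9): ttaggctgttggaATTTAcgcataaagcag
Plk3 (chr4:116801323-116801352, mm9): atggaccacttTTATTTATTaacagacatt
Ifng (chr10:117882871-117882900, mm9): acccgaatgacaaataactcgctcATTTAt
Ier3 (chr17:35959535-35959564, mm9): acacagatATTTAttacgATTTAtagggtc
Il17a (chr1:20724407-20724436, mm9): ttactatttgtttATTTAaggttctctcct
Il10 (chr1:132920961-132920990, mm9): ctctctccgaaatATTTAttacctctgata
Their log2 differences ran from -2.88 for Ptgs2 over -0.68 for the kinase gene Plk3 and 0.99 for Ifng to 1.46 for Ier3, 3.38 for Il17a and 3.74 for Il10. Plk3, like Zfp36, holds the 9-base element and was lower. Over all 25 measured genes with that element, however, 1 was at least 2-fold lower and 2 at least 2-fold higher. Ier3 and Il10, which hold the 7-base TATTTAT without the longer element, were higher. Pim3, a kinase gene whose probe also holds TATTTAT, was at -0.32 ± 0.20, so targets with the 7-base element lay on both sides of 0. A probe shows only 60 bases of a message, and an element elsewhere in it is not seen here.

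Over all measured genes, those whose probe holds ATTTA looked much like the rest. The 1105 such genes had a median of -0.05, beside -0.04 for the others, with 5.70% at least 2-fold lower and 8.87% at least 2-fold higher, beside 5.14% and 8.20%. The 206 genes with TATTTAT had a median of -0.01, with 5.83% at least 2-fold lower and 12.1% at least 2-fold higher. Of the genes without it, 5.18% were at least 2-fold lower and 8.19% at least 2-fold higher. The 25 genes with TTATTTATT, Zfp36 among them, had a median of -0.15, with 1 at least 2-fold lower, which is Zfp36, and 2 at least 2-fold higher. Probes with ATTTA are richer in A and T, with a median of 65% against 56.7%.

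**Figure D4:**
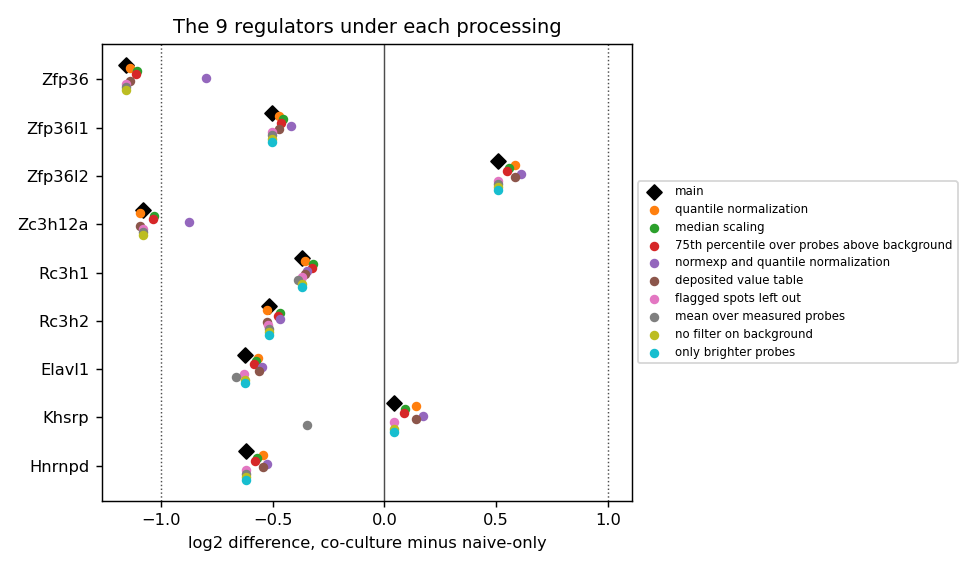
Log2 difference (co-culture minus naive-only) of the 9 genes under the main processing (black diamonds) and 9 alternatives (coloured circles), with dotted lines at 2-fold. Zfp36l2 is right of 0 in all 10, Khsrp changes sign with the mean of its probes, and Zfp36 and Zc3h12a leave the 2-fold range with normexp and quantile normalization.

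Markers of other cells also differed between the arrays. All 12 T cell markers were measured, with 0 past 2-fold and a median of 0.30. Of these, 8 were positive, Cd3d, Cd3e, Cd3g and Cd4 among them, and 4 were negative (Cd5, Cd28, Lat and Cd247). The 12 had a summed signal of 415341 units (naive-only) and 486149 units (co-culture). All 13 measured B cell markers of 16 were at least 2-fold lower in the co-culture, the other 3 passed the background call in the naive-only culture alone, and their summed signal was 21088 and 4607 units. Of 12 class II and dendritic cell markers, 11 were measured, with 7 at least 2-fold lower and 1 higher (summed signal 113219 and 75609 units). Of 12 monocyte, macrophage and neutrophil markers, 11 were measured, with 3 at least 2-fold lower and 0 higher, 7 of them negative (41062 and 46016 units, and 9921 and 9098 units without Csf3r). Of 5 CD8 T cell markers, 4 were measured, with 1 lower and 1 higher (1089 and 583 units, and 261 and 525 units without Eomes). Of 8 natural killer cell markers, 4 were measured, with 2 lower and 1, Gzma, higher (8417 and 23073 units, and 2081 and 905 units without Gzma). In these 3 lists the order of the sums thus rests on the brightest probe, and a sum weighs each gene by its probe's brightness. Zfp36 and Zc3h12a are also expressed in B and myeloid cells, and the part of these cells in the differences of the 9 genes and of Il6, Ptgs2 and Rel was not tested.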

How the data were processed

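RNA from 2 cell samples was hybridised to single-colour (Cy3) Agilent arrays, 1 each. Per the labels' protocols, the Ovation V2 system amplified the RNA and an enzymatic kit for genomic DNA labelled it, and amplification can alter relative levels. The deposited scanner files hold intensity values, background-subtracted per the file headers by Agilent Feature Extraction 10.7.1.1, while the submitters' processing notes name 9.5.1.1. The deposited value table holds intensity normalized by the authors in a way not given in the sources used here. Its columns both had a median of 14.5 and kept the rank order of the scanner values (Spearman correlation 1), and its log2 differences had a Pearson correlation of 0.999 with those used here across measured probes.

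The main values are log2 processed signals (repeated spots averaged), from which each array's 75th percentile of noncontrol probes (299.4 units for naive-only, 301.3 for co-culture) was subtracted. The software called 46.2% and 45.1% of probes well above background, and 0 spots were saturated. Precision is limited by having 1 array a group. The brightest probe by mean level stood for its gene, which was measured if that probe passed the background call on both arrays. A probe counted as named where its gene name differed from the accession or RefSeq gave a symbol. This held for 33184 probes, of which 27235 had a symbol through RefSeq (GRCm38.p6). Probe coordinates are those of mm9 in the files, and exon or UTR annotation for it was not used here.

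The 9 genes, the lists and the comparisons were chosen with earlier results of these data known. The naming rule took the 9 genes with every probe, up to 4 genes past 2-fold in each pathway list, and 12 genes whatever their value. Further genes shown by sequence or marked in the text were picked by value. Alternatives were quantile, median and above-background scaling, normexp (offset 50) with quantile normalization, the deposited table, spots without flags, the mean of probes, and other filters on dim probes. The gene summary was checked on simulated arrays with known folds and noise below the technical error here. That tests the code and not the precision of these data. Python 3.11.15 with numpy 2.4.6, pandas 2.3.3 and matplotlib 3.10.9, and R 4.3.3 with limma 3.58.1 were used.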

Additional observations from a re-analysis of the deposited data

How the results depend on the processing

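Directions of 8 of the 9 genes were the same under all alternatives that kept them. Khsrp was at -0.34 with the mean of its probes and between 0.04 and 0.17 otherwise. Of 79 values of the 9 genes under alternatives, 77 lay within 0.20 (log2, the median technical error of all measured genes) of the main value, the others being that of Khsrp and that of Zfp36 with normexp and quantile normalization (-0.80). The count of the 9 genes at least 2-fold lower was 0 with normexp and quantile normalization and 0 with only brighter probes, which left 7 genes, without Zfp36 and Zc3h12a. Over all genes, 3.31% and 3.14% were at least 2-fold lower under these 2 settings, beside 5.19% in the main processing. The median of the Regnase-1 and Roquin target list was -1.02 without a filter on background and -0.081 with only brighter probes, and that of the HuR target list was 0.84 without a filter; the cause was not tested beyond the genes each filter adds or removes. Without a filter the median over all genes was 0.11, and under the other alternatives between -0.07 and 0.01. Of 192 values of named list genes, 181 stayed within 0.20, and no gene past 2-fold changed sign. Values near 0 did change sign: Icos was at 0.01 with quantile normalization, in the deposited table and with normexp and quantile normalization and at 0.06 with the mean of its probes, and Dusp1 lay between -0.03 and -0.02 under the first 3 of these. The median of the decapping list was 0.04 with median scaling and 0.03 with the percentile over probes above background. No paired analysis was possible because each group has 1 array. Leaving out a replicate was not possible for the same reason.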
